A study of Mus musculus with 31 samples.

Results

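The genes described here encode the machinery that brings proteins into mitochondria and folds them there. They were taken by name from a table of hippocampal expression, as every gene named Timm or Tomm followed by a digit, together with Romo1, Pam16, Grpel1, Grpel2, Dnajc15, Dnajc19, Hspa9, Hspd1, Hspe1, Chchd4, Gfer, Pmpca and Pmpcb. The names matched 37 genes in a table of 27094 loci, and 36 of the 37 were expressed highly enough to be tested, beside 17139 tested loci in all. RNA of the whole hippocampus was sequenced from 10 db/db-IF, 10 db/db and 11 db/m mice, all of strain C57BLKS/J and labelled as 3 months old. Both db/db and db/db-IF mice carry 2 db alleles of Lepr, the leptin receptor gene, in all their cells and become obese and diabetic. From the db/db-IF mice food was withheld on alternate days (intermittent fasting, IF), whereas the db/db mice and the heterozygous db/m littermates ate freely. The study's own account gives other group sizes than the sample labels, and the labels were used here. Each library is labelled as a separate sample and was taken as 1 mouse, so that the p-values measure the spread between these libraries.

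Most mitochondrial proteins are made in the cytosol and are drawn into the organelle unfolded. The TOM complex of the outer membrane recognizes them through receptors and passes them through a pore, small chaperones of the intermembrane space escort carrier proteins to the TIM22 complex, and the TIM23 complex with its ATP-driven motor pulls proteins with a presequence into the matrix. There a protease removes the presequence and the chaperonin folds the protein, while a disulfide relay traps small cysteine-rich proteins in the intermembrane space. Neurons depend on respiration, and the nuclear-encoded subunits of the respiratory chain enter through these complexes.

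Expression was given as FPKM, fragments scaled by transcript length and by the number of mapped fragments, a unit in which levels of different genes can be set side by side. No read counts per gene were given, so the number of reads behind a value is unknown. Fold changes are on the log2(FPKM + 1) scale, which understates those of weakly expressed genes. Of the 36 tested genes, 8 lay on loci that carry other gene names as well, so their values cannot be assigned to the import gene alone. These were Tomm40 (with Apoe), Timm44 (with Ctxn1 and Elavl1), Pam16 (with Coro7), Tomm22 (with Cby1), Tomm6 (with Prickle4), Tomm6os (with Frs3), Timm10b (with Dnhd1) and Timm17b (with Otud5, Pim2 and Slc35a2). The hippocampal markers Zbtb20, Wfs1 and Prox1 averaged 277, 173 and 5.83 FPKM over the 31 mice. They varied widely between mice, from 133 to 448 FPKM, from 16.7 to 296 FPKM and from 0.644 to 11.5 FPKM. The libraries differed in cell type markers along with fasting. Of 6 neuronal markers 4 were lower in db/db-IF than in db/db mice, beside 27.4% of all loci, with a summed level between 3131 and 4312 FPKM in db/db-IF mice (median 3741), between 3497 and 4449 FPKM in db/db mice (median 4179) and between 3553 and 4192 FPKM in db/m mice (median 3893). All 5 erythroid markers, of which Hba-a1 and Hba-a2 share a locus as do Hbb-bs and Hbb-bt, were higher in db/db-IF mice than in both other groups, with a summed level between 218 and 861 FPKM (median 336), against 144 to 379 FPKM in db/db mice (median 231) and 122 to 260 FPKM in db/m mice (median 178). Over all loci 23.7% were higher in db/db-IF than in db/db mice and 26.2% higher than in db/m mice. Of astrocyte, endothelial and hippocampal subfield markers 2 of 5, 2 of 4 and 2 of 6 were lower in db/db-IF than in db/db mice. The share of lower loci was 27.4% over all loci. Of oligodendrocyte, microglial and choroid plexus markers 1 of 5, 1 of 5 and 1 of 4 were higher and 0 were lower in this comparison. The choroid plexus markers had a median summed level of 20663 FPKM in db/db-IF mice, 8757 FPKM in db/db mice and 18602 FPKM in db/m mice, and the choroid plexus gene Ttr ranged from 660 to 32960 FPKM over all mice. The part of these shifts in the results was not tested. In whole tissue, fewer cells of a type and less RNA per cell cannot be told apart.

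More import genes were higher than lower in the hippocampus of fasted mice. Of the 36 genes, 19 were higher and 5 were lower in db/db-IF than in db/db mice (limma, adjusted p under 0.05), and their median log2 fold change was 0.13. Over all 17139 loci 23.7% were higher and 27.4% were lower in this comparison, and the median was -0.02. Among the 28 genes alone on their locus 14 were higher and 5 were lower, and among the 8 on shared loci 5 were higher and 0 were lower (limma; 0 of these 8 had a negative fold change past an adjusted p of 0.05). Against db/m mice 16 were higher and 6 were lower in db/db-IF mice, with 26.2% and 29.4% over all loci, and 17 and 3 after mice were set to equal medians (29.4% and 24.9% over all loci) or quantile normalized (29% and 26.1%). Against db/m and db/db mice combined, the contrast used in the study, 18 were higher and 6 were lower, with 26.8% and 30.9% over all loci. These comparisons share the db/db-IF mice. The mice of each group were also split at the group's largest gap in read quality, a rule that always gives 2 sets. Within the lower and the higher set alike, 13 genes were higher and 2 were lower in db/db-IF than in db/db mice. Over all loci 17.6% and 19.2% were called in the lower set, with 5 against 4 mice, and 9.66% and 14.5% in the higher set, with 5 against 6 mice. Without db/db mouse 10, which stood apart from its group in several genes, 20 genes were higher and 4 were lower, with 24.2% and 28.4% over all loci. Between db/db and db/m mice, 0 were higher and 2 were lower by limma, and 3 and 5 at an unadjusted p under 0.05, with 2.96% and 2.79% called over all loci. Within the read-quality sets 0 passed between db/db and db/m mice in either direction by limma, with 0.834% higher and 0.362% lower over all loci in the lower set and 0.0408% and 0.0117% in the higher set. The plot of fold changes by role gives all 36 genes.

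**Figure D1:**
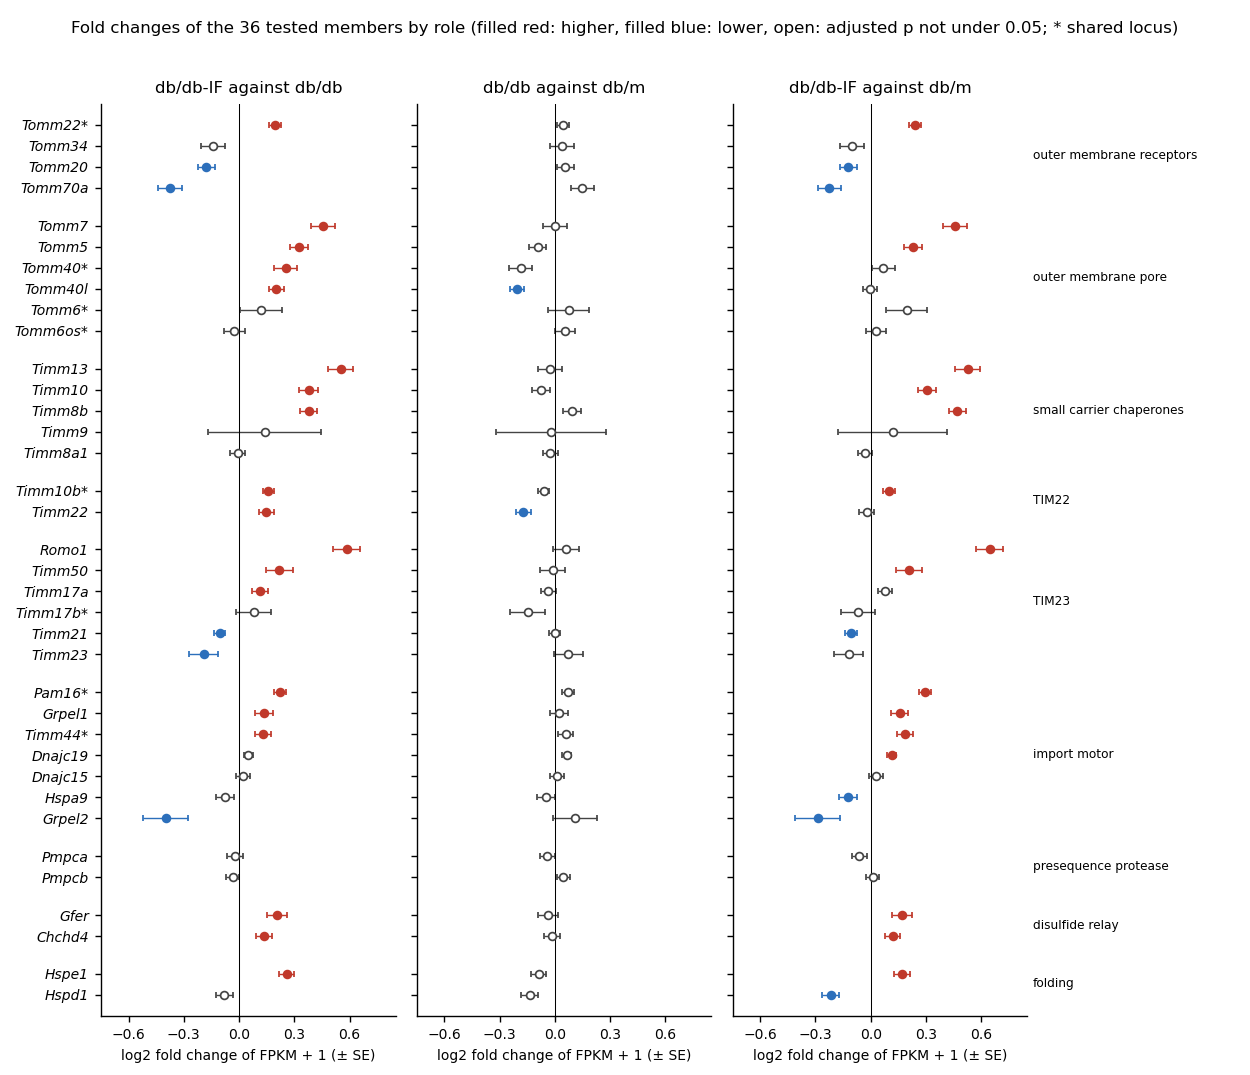
Log2 fold changes of FPKM + 1 (horizontal axis, ± SE) of the 36 tested genes, grouped by role, with db/db-IF minus db/db mice on the left, db/db minus db/m mice in the middle and db/db-IF minus db/m mice on the right. Filled points passed at an adjusted p under 0.05 (19 higher and 5 lower on the left, 0 and 2 in the middle and 16 and 6 on the right), and asterisks mark genes on shared loci.

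The small carrier chaperones of the intermembrane space held some of the largest differences. Timm8b, Timm10 and Timm13, which shield hydrophobic carrier and beta-barrel proteins between the membranes, were higher in db/db-IF mice than in both other groups, and Timm9 and Timm8a1 did not pass. Timm8b, on chromosome 9 from 50603901 to 50605320 (GRCm38), ranged from 216 to 268 FPKM in db/db-IF mice (median 235), from 165 to 215 FPKM in db/db mice (median 174) and from 152 to 190 FPKM in db/m mice (median 170). Every db/db-IF mouse thus lay above every other mouse. Its log2 fold change was 0.38 (SE 0.047, adjusted p = 5.5e-07) against db/db mice and 0.47 (SE 0.046, adjusted p = 1.4e-08) against db/m mice. Timm13, which pairs with Timm8a, ranged from 14.6 to 23.6 FPKM in db/db-IF mice (median 16.0), from 9.82 to 13.8 FPKM in db/db mice (median 10.9) and from 10.3 to 12.7 FPKM in db/m mice (median 11.4). Here too the db/db-IF mice were separate from all other mice, with a log2 fold change of 0.55 (SE 0.068, adjusted p = 4.4e-07) against db/db mice. Timm10, the most highly expressed of the small chaperones, ranged from 278 to 332 FPKM in db/db-IF mice (median 295), from 210 to 270 FPKM in db/db mice (median 222) and from 202 to 282 FPKM in db/m mice (median 240). The db/db-IF mice were separate from the db/db mice but overlapped the db/m mice, and the log2 fold change was 0.38 (SE 0.050, adjusted p = 1.1e-06) against db/db mice. Timm8a1, the gene mutated in human deafness-dystonia, ranged from 11.9 to 14.9 FPKM in db/db-IF mice, from 12.8 to 15.6 FPKM in db/db mice and from 12.5 to 15.8 FPKM in db/m mice, with a log2 fold change of -0.01 (SE 0.041) in db/db-IF against db/db mice. Timm9, which forms a hexamer with Timm10, spread from 16.9 to 71.5 FPKM among db/db-IF mice, from 15.3 to 45.6 FPKM among db/db mice and from 14.3 to 59.4 FPKM among db/m mice. Its coefficient of variation of 54.3%, 42.3% and 54.8% in db/db-IF, db/db and db/m mice compares with medians of 9.91%, 7.20% and 5.84% over the tested import genes, and the SE of its fold change was 0.30. Timm8a2, a paralog of Timm8a1, stayed under 0.363 FPKM in all mice and was not tested.

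Promoters are shown because many of these genes were higher in the same mice. RefSeq promoter windows of GRCm38.p6 ran from 250 bases before to 50 bases after the gene start. They were matched by symbol and used for 32 of the 37 genes, and 32851 windows of all genes served as the background. Grpel2, Hspa9 and Timm21 were left out by a rule given with the processing, and Tomm40l and Tomm7 were not matched. The counts by direction given here therefore lack Grpel2 and Timm21, which were lower in db/db-IF than in db/db mice. They also lack Tomm40l and Tomm7, which were higher. Both strands were searched for CCGGAAG, a core of ETS family sites such as those of GA-binding protein (Gabpa), for GCGCATGC (nuclear respiratory factor, Nrf1), for AAGATGGC (Yy1), for GAANNTTC (heat shock element) and for TGATGCAA (C/EBP-ATF composite). The ETS core was found in 14 of the 32 genes (43.8%) and in 8.86% of all windows. The median GC content was 59.7% in the windows of the import genes and 52.7% in all windows. Among the 14 genes were 7 that were higher, 2 that were lower and 4 that did not pass in db/db-IF against db/db mice, and the untested Timm8a2. Among all 32 genes 17 were higher and 3 were lower. The Nrf1 motif was found in Grpel1 and Timm13 (2.71% of all windows), the Yy1 motif in Timm50 (2.75%), the heat shock element in Hspd1, Hspe1 and Timm9 (7.86%), and the C/EBP-ATF composite in 0 of the 32 genes (0.895%). The ETS and heat shock matches of Hspd1 and Hspe1, neighbours on opposite strands, mirror each other in order and spacing. They may be the same bases, counted for both genes in the ETS and the heat shock counts. The 250 bases before the start are given for 4 genes that were higher and for Tomm70a, which was lower, in db/db-IF than in db/db mice, to show where the cores lie in genes that moved in either direction. They lie at chr9:50603651-50603900 (Timm8b, plus strand), chr2:156143983-156144232 (Romo1, plus strand), chr10:80900970-80901219 (Timm13, minus strand), chr1:55087898-55088147 (Hspe1, plus strand) and chr16:57121464-57121713 (Tomm70a, plus strand). Capitals mark matches to the ETS core, the Nrf1 motif or the heat shock element on either strand, and in Hspe1 the heat shock element and 2 ETS matches overlap. The Romo1 window belongs to a start inside the annotated span of the gene, and both of its ETS matches lie within that span. The stretch shown for Hspe1 lies within the annotated span of Hspd1. A match is a description of the letters and not evidence of binding.
Timm8b: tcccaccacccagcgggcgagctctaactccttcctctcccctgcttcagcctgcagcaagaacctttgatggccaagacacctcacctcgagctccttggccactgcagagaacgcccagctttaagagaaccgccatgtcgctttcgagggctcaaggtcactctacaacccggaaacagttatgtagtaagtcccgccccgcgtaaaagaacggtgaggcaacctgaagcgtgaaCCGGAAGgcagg
Romo1: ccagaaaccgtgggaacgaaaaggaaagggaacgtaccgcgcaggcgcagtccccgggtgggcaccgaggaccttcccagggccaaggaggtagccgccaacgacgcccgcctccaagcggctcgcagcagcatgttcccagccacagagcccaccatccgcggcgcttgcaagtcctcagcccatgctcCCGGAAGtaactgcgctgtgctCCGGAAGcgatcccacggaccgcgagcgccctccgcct
Timm13: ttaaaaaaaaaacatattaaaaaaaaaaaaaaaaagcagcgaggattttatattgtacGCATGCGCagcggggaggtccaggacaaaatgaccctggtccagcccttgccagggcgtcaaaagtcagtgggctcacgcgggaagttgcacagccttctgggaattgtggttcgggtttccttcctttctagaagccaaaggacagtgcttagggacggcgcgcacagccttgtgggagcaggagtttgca
Hspe1: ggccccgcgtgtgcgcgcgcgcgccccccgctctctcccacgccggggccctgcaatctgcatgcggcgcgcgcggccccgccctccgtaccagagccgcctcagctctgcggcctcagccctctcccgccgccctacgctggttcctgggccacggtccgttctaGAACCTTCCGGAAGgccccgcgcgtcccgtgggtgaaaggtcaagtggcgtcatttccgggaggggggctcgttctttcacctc
Tomm70a: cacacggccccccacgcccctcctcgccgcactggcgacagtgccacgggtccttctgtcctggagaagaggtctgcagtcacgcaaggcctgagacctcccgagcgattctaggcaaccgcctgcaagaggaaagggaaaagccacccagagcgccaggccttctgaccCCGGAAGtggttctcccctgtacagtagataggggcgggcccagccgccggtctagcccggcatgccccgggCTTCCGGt

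The mRNAs of 8 regulators of transcription linked to mitochondrial stress or biogenesis, with Gabpa, Nrf1 and Yy1 among them, went in both directions. Gabpa averaged 2.22 FPKM in db/db-IF mice, 3.34 FPKM in db/db mice and 3.65 FPKM in db/m mice, and was lower in db/db-IF than in db/db mice (log2 fold change -0.44, SE 0.082, adjusted p = 6.0e-05). Nrf1 (-0.19) and Yy1 (-0.36) were lower as well, whereas the stress transcription factors Atf4 (0.28), Atf5 (0.25) and Ddit3 (0.26) were higher. Ppargc1a, a coactivator of mitochondrial biogenesis, and the nuclear receptor gene Esrra did not pass in this comparison, with log2 fold changes of 0.03 (SE 0.14) and 0.11 (SE 0.057). Both were higher in db/db-IF than in db/m mice (0.47 with an adjusted p of 0.0045 for Ppargc1a and 0.15 with an adjusted p of 0.021 for Esrra). Esrra lies on a locus with Mir6990, so its values cannot be assigned to Esrra alone. Of this list of 8 factors 3 were thus higher and 3 were lower than in db/db mice, beside 23.7% and 27.4% of all loci. The trend on transcript length described below was not taken out of these values. Whether any of these factors acts on the import genes was not tested.

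The 4 genes grouped as outer membrane receptors include that of the cytosolic protein Tomm34. Among the 4, Tomm70a and Tomm20 were lower and Tomm22 was higher in db/db-IF than in db/db mice, beside 27.4% and 23.7% of all loci. Tomm70a, the receptor for carrier precursors that arrive with cytosolic chaperones, ranged from 9.42 to 16.4 FPKM in db/db-IF mice (median 14.3), from 16.0 to 20.1 FPKM in db/db mice (median 18.4) and from 14.999 to 20.5 FPKM in db/m mice (median 16.2). Of the db/db-IF mice 9 of 10 lay below the lowest db/db mouse, and the log2 fold change was -0.37 (SE 0.065, adjusted p = 3.1e-05). It was also lower than in db/m mice (-0.22, SE 0.064, adjusted p = 0.0036). Tomm20, the receptor for presequences, ranged from 32.3 to 44.6 FPKM in db/db-IF mice (median 38.6), from 40.3 to 47.4 FPKM in db/db mice (median 43.2) and from 37.7 to 44.3 FPKM in db/m mice (median 41.9). The log2 fold change was -0.18 (SE 0.048, adjusted p = 0.0029) against db/db mice, with 7 of 10 db/db-IF mice below all db/db mice, and 0.01 (adjusted p = 0.81) with the trend on transcript length removed. Against db/m mice it was -0.12 (adjusted p = 0.029), a call lost without any of 4 mice (db/db-IF 1, 7 or 11, or db/m 6, adjusted p up to 0.068). Tomm22, the central receptor, on a locus shared with Cby1, ranged from 32.9 to 40.6 FPKM in db/db-IF mice (median 34.4), from 29.3 to 34.2 FPKM in db/db mice (median 30.3) and from 27.98 to 30.7 FPKM in db/m mice (median 30.1). It had a log2 fold change of 0.20 (SE 0.034, adjusted p = 2.7e-05) against db/db mice. Tomm34, a cytosolic partner of the receptors and the most highly expressed of the 4, ranged from 63.7 to 93.6 FPKM in db/db-IF mice, from 73.1 to 96.7 FPKM in db/db mice and from 67.6 to 92.2 FPKM in db/m mice, with groups that overlapped and a log2 fold change against db/db mice of -0.14 (SE 0.066, adjusted p = 0.071).

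The 6 genes grouped with the pore include Tomm6os, which is not a pore subunit gene. Of the 6, 4 were higher in db/db-IF than in db/db mice and 0 were lower (limma), beside 23.7% and 27.4% of all loci. Tomm6 and Tomm6os had an adjusted p of 0.38 and 0.73 (limma). The small subunits Tomm7 and Tomm5, which help to assemble and stabilize the pore, differed most. Tomm7 ranged from 22.3 to 35.3 FPKM in db/db-IF mice (median 25.9), from 17.5 to 23.5 FPKM in db/db mice (median 18.9) and from 17.2 to 21.6 FPKM in db/m mice (median 19.8). Every db/db-IF mouse lay above every db/m mouse and 9 of 10 above every db/db mouse, with a log2 fold change of 0.46 (SE 0.065, adjusted p = 2.4e-06) against db/db mice. Tomm5 ranged from 72.8 to 99.6 FPKM in db/db-IF mice (median 79.6), from 56.4 to 74.5 FPKM in db/db mice (median 63.1) and from 63.8 to 75.2 FPKM in db/m mice (median 69.1). Its log2 fold change was 0.33 (SE 0.050, adjusted p = 6.0e-06) against db/db mice and 0.23 (SE 0.049, adjusted p = 2.1e-04) against db/m mice. Tomm40, the pore itself, is on a locus with the astrocyte gene Apoe and ranged from 210 to 348 FPKM in db/db-IF mice (median 251), from 170 to 238 FPKM in db/db mice (median 216) and from 224.5 to 256 FPKM in db/m mice (median 240.0). Its locus had a log2 fold change of 0.25 (SE 0.063, adjusted p = 0.0015) in db/db-IF against db/db mice. Tomm6os is annotated as an antisense transcript beside Tomm6, and since the strandedness of the libraries is not given in the sources used here, reads of these genes cannot be told apart.

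**Figure D2:**
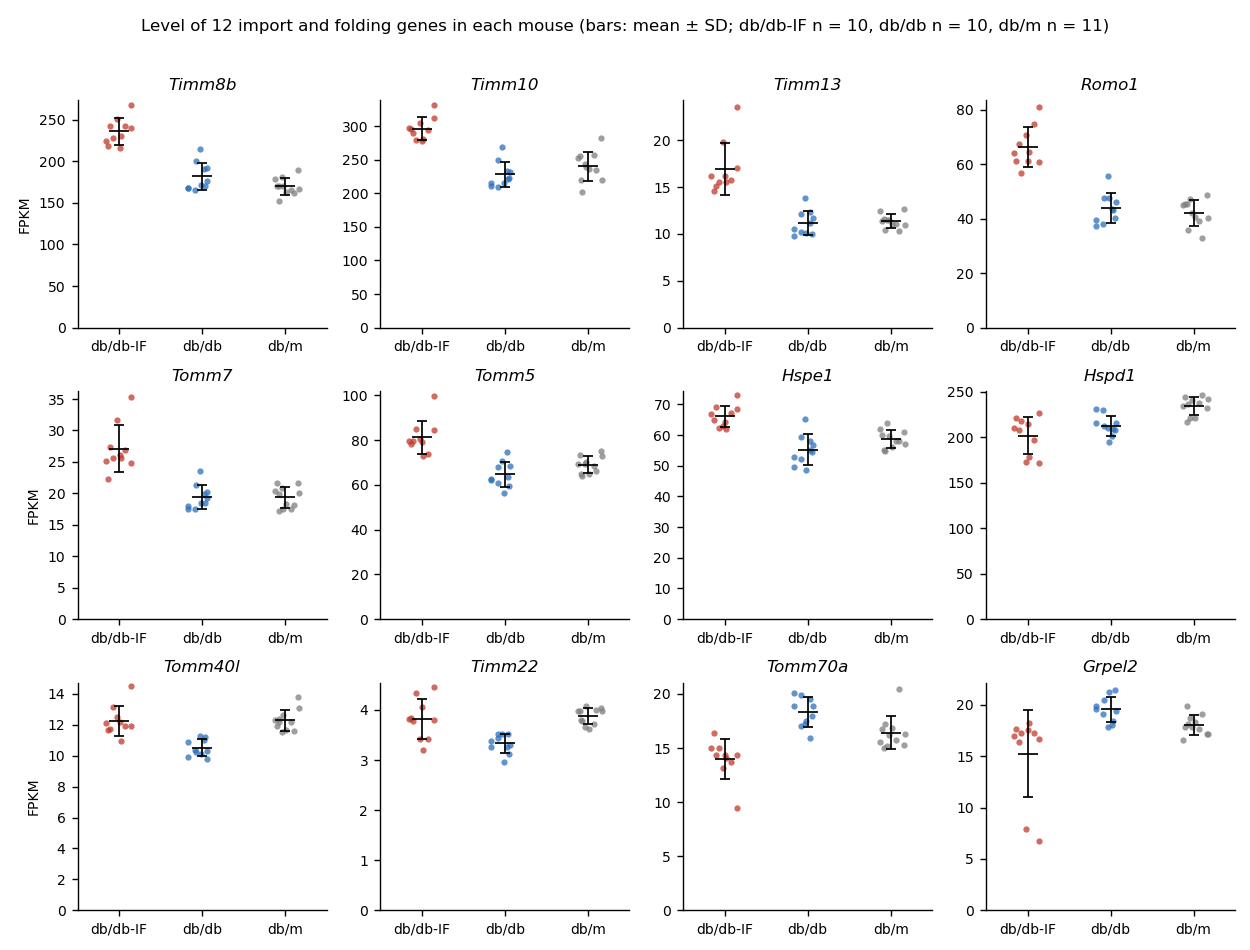
FPKM (vertical axes, from 0) of 12 import and folding genes in each db/db-IF, db/db and db/m mouse, with the mean and SD of each group. In Timm8b, Timm13 and Romo1 every db/db-IF mouse lies above every other mouse, Tomm40l and Timm22 are low in db/db mice, and 2 db/db-IF mice stand at 6.71 and 7.88 FPKM of Grpel2.

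Tomm40l and Timm22 were the 2 genes called between the freely fed groups. Tomm40l, a paralog of the pore gene that stands alone on its locus, ranged from 10.9 to 14.5 FPKM in db/db-IF mice (median 12.01), from 9.79 to 11.3 FPKM in db/db mice (median 10.3) and from 11.5 to 13.8 FPKM in db/m mice (median 12.2). All 10 db/db mice lay below all db/m mice, with a log2 fold change of -0.21 (SE 0.039, adjusted p = 0.0016). In db/db-IF mice Tomm40l was higher than in db/db mice (0.20, SE 0.040, adjusted p = 1.4e-04), and its difference from db/m mice was -0.005 (SE 0.039, adjusted p = 0.92). Timm22, the channel through which carriers enter the inner membrane, ranged from 3.20 to 4.47 FPKM in db/db-IF mice (median 3.80), from 2.97 to 3.53 FPKM in db/db mice (median 3.34) and from 3.61 to 4.07 FPKM in db/m mice (median 3.97). All 10 db/db mice were again below all db/m mice (-0.17, SE 0.039, adjusted p = 0.0078). Within the lower and higher read-quality sets the log2 fold change in db/db against db/m mice was -0.22 and -0.21 for Tomm40l (adjusted p = 0.059 and 0.29) and -0.21 and -0.14 for Timm22 (adjusted p = 0.12 and 0.44). The log2 fold change in db/db-IF against db/db mice was 0.15 (SE 0.040, adjusted p = 0.0028), and against db/m mice it was -0.02 (SE 0.039, adjusted p = 0.65). These comparisons share the db/db mice, so that low values in this group enter both. A p that misses the threshold does not show that db/db-IF and db/m mice had the same level. Timm10b, a small chaperone bound to TIM22, lies on a locus with Dnhd1 and ranged from 5.30 to 6.07 FPKM in db/db-IF mice (median 5.35), from 4.31 to 5.19 FPKM in db/db mice (median 4.86) and from 4.73 to 5.38 FPKM in db/m mice (median 5.08). It was higher in db/db-IF than in db/db mice (0.16, SE 0.031, adjusted p = 1.2e-04).

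Genes of the TIM23 complex went in both directions. Of the 6 genes 3 were higher and 2 were lower in db/db-IF than in db/db mice, beside 23.7% and 27.4% of all loci. Romo1, a small inner membrane protein that takes part in the assembly of TIM23, had the largest log2 fold change of FPKM + 1 in this comparison. With the trend on transcript length removed, Timm13 (0.43) and the locus of Timm10b and Dnhd1 (0.47) stood above Romo1 (0.40). For that shared locus the longest transcript of either gene was used, and the value of 0.47 rests on this choice. Romo1 lies on chromosome 2 from 156144153 to 156145794 and ranged from 56.7 to 81.1 FPKM in db/db-IF mice (median 64.4), from 37.4 to 55.7 FPKM in db/db mice (median 43.4) and from 33.0 to 48.7 FPKM in db/m mice (median 42.0). All db/db-IF mice were above all others, and the log2 fold change was 0.58 (SE 0.073, adjusted p = 5.2e-07) against db/db mice and 0.65 (SE 0.072, adjusted p = 6.4e-08) against db/m mice. Timm50, the receptor of the complex on the intermembrane side (0.22, SE 0.071, adjusted p = 0.012), and Timm17a, a channel subunit (0.11, SE 0.041, adjusted p = 0.021), were higher against db/db mice by less. Without db/db-IF mice 1, 7 and 11 these calls were lost (0.14 with an adjusted p of 0.064 for Timm50 and 0.10 with an adjusted p of 0.086 for Timm17a). Timm23, the other channel subunit, ranged from 1.38 to 3.54 FPKM in db/db-IF mice, from 2.94 to 3.44 FPKM in db/db mice and from 2.26 to 3.19 FPKM in db/m mice. Its log2 fold change was -0.19 (SE 0.080, adjusted p = 0.045) against db/db mice, and the call was lost when any of 11 mice was left out (db/db-IF 1, 4, 8 or 11, or db/db 1, 4, 5, 6, 8, 9 or 10, adjusted p up to 0.10). Timm21, which couples TIM23 to the respiratory chain, stood near the limit of 1 FPKM for testing, with a median of 1.01 FPKM in db/db-IF mice, 1.17 FPKM in db/db mice and 1.17 FPKM in db/m mice, and its log2 fold change was -0.11 (SE 0.032, adjusted p = 0.0065) against db/db mice. Timm17b, the X-linked paralog of Timm17a, on a locus with 3 other genes, did not pass (0.08, SE 0.095, adjusted p = 0.50).

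The import motor was split between the nucleotide exchange factors of its ATPase. Of the 7 motor genes 3 were higher and 1 was lower in db/db-IF than in db/db mice, beside 23.7% and 27.4% of all loci. Grpel1 and Grpel2 encode exchange factors that release ADP from the matrix Hsp70, which is encoded by Hspa9. Grpel1 ranged from 32.5 to 49.5 FPKM in db/db-IF mice (median 39.5), from 32.8 to 40.0 FPKM in db/db mice (median 35.1) and from 32.9 to 37.5 FPKM in db/m mice (median 35.4), with a log2 fold change of 0.14 (SE 0.049, adjusted p = 0.021) against db/db mice. Grpel2 ranged from 6.71 to 18.3 FPKM in db/db-IF mice (median 17.1), from 17.8 to 21.4 FPKM in db/db mice (median 19.5) and from 16.6 to 19.9 FPKM in db/m mice (median 17.9). Its log2 fold change was -0.40 (SE 0.12, adjusted p = 0.0083) against db/db mice, and 9 of 10 db/db-IF mice lay below every db/db mouse. Mice 7 and 11 stood apart at 6.71 and 7.88 FPKM, and without db/db-IF mice 1, 7 and 11 the log2 fold change was -0.18 (adjusted p = 4.2e-04). Against db/m mice it was -0.29 (SE 0.12, adjusted p = 0.043) with all mice and -0.07 (adjusted p = 0.11) without these 3. The call against db/m mice was lost when any of 10 mice was left out (db/db-IF 7 or 11, or db/m 1, 2, 3, 5, 6, 7, 8 or 9, adjusted p up to 0.11). Hspa9 ranged from 108 to 141 FPKM in db/db-IF mice (median 130.0), from 120 to 150.5 FPKM in db/db mice (median 136) and from 129 to 149 FPKM in db/m mice (median 138). It did not pass against db/db mice (-0.08, SE 0.048, adjusted p = 0.19) and was lower than in db/m mice (-0.12, SE 0.047, adjusted p = 0.026), a call lost without db/db-IF 1 or 11 (adjusted p up to 0.064). Pam16, a regulator of the motor, lies on a locus with Coro7 that ranged from 133 to 164 FPKM in db/db-IF mice, from 116 to 130 FPKM in db/db mice and from 112 to 123 FPKM in db/m mice, so that all db/db-IF mice were above all others (0.22, SE 0.034, adjusted p = 5.9e-06, against db/db mice). Timm44, which tethers the motor, lies on a locus with Ctxn1 and Elavl1 with a median of 407 FPKM in db/db-IF mice, 366 FPKM in db/db mice and 361 FPKM in db/m mice, and had 0.13 (SE 0.042, adjusted p = 0.012). Of the J-proteins that stimulate the ATPase, Dnajc15 did not pass in any comparison, and Dnajc19, near 1 FPKM, was higher in db/db-IF than in db/m mice (0.11, SE 0.025, adjusted p = 3.8e-04).

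Every db/db-IF mouse above every other mouse was seen for 4 of the 36 genes (Timm8b, Timm13, Romo1 and Pam16), and for 1.37% of all tested loci. The opposite order was seen for 0 of the 36 genes and for 1.45% of all loci.

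The folding genes Hspd1 and Hspe1 encode the chaperonin Hsp60 and its lid Hsp10 and are transcribed away from each other from a shared start region on chromosome 1, where their loci overlap. With the trend on transcript length left in, they did not move together. When each mouse's slope on length was in the model, as described below, both had similar log2 fold changes against db/db mice. These were 0.064 for Hspd1 and 0.065 for Hspe1, and neither passed. With the trend on length removed instead, their ratio still differed by -0.18 from db/db mice. Hspd1 ranged from 171 to 226 FPKM in db/db-IF mice (median 209), from 195 to 230.5 FPKM in db/db mice (median 211) and from 217 to 246 FPKM in db/m mice (median 236). It was lower in db/db-IF than in db/m mice (-0.22, SE 0.046, adjusted p = 2.1e-04), and the db/db mice were between them, with -0.08 (SE 0.047, adjusted p = 0.15) in db/db-IF against db/db mice. In db/db against db/m mice Hspd1 had -0.14 (SE 0.046, adjusted p = 0.071), with 8 of 10 db/db mice below every db/m mouse, and this difference passed without db/db-IF mouse 7 or 11 (adjusted p down to 0.037). Hspe1 ranged from 62.0 to 73.0 FPKM in db/db-IF mice (median 65.8), from 48.5 to 65.2 FPKM in db/db mice (median 54.8) and from 54.7 to 63.8 FPKM in db/m mice (median 58.03). Its log2 fold change was 0.26 (SE 0.043, adjusted p = 1.9e-05) against db/db mice and 0.17 (SE 0.042, adjusted p = 0.0012) against db/m mice. The difference from db/m mice did not pass when the 2 loci named Hspe1 were summed (0.15, adjusted p = 0.13).

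Both genes of the disulfide relay were higher in db/db-IF than in db/db mice, beside 23.7% of all loci. Chchd4, the oxidoreductase that traps small proteins in the intermembrane space, had a median of 16.1 FPKM in db/db-IF mice, 14.2 FPKM in db/db mice and 14.6 FPKM in db/m mice, and was higher in db/db-IF than in db/db mice (0.13, SE 0.043, adjusted p = 0.010). Gfer, the sulfhydryl oxidase that recharges it, ranged from 4.88 to 7.82 FPKM in db/db-IF mice (median 6.97), from 5.35 to 6.32 FPKM in db/db mice (median 5.66) and from 4.51 to 6.29 FPKM in db/m mice (median 6.02). It was higher in db/db-IF than in db/db mice (0.21, SE 0.054, adjusted p = 0.0021). Here 9 of 10 db/db-IF mice lay above all db/db mice and 1 lay below them all. The subunits of the presequence protease did not pass in any comparison. Pmpca, the subunit that binds the presequence, ranged from 82.5 to 111 FPKM in db/db-IF mice, from 88.5 to 106 FPKM in db/db mice and from 92.2 to 105 FPKM in db/m mice. The log2 fold change in db/db-IF against db/db mice was -0.02 (SE 0.044) for Pmpca and -0.04 (SE 0.035) for the catalytic subunit gene Pmpcb.

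Whether partner genes shifted against each other was asked with the log2 ratio of their FPKM + 1 within each mouse. Of 11 pairs chosen, 8 had both genes alone on their loci, and 3 comparisons of each gave 24 tests (two-sided permutation test, 100000 resamples, adjusted over the 24). Of these 9 passed. The ratio of Hspd1 to Hspe1 averaged 1.59 ± 0.17 in db/db-IF mice (SD, n = 10), 1.93 ± 0.15 in db/db mice (SD, n = 10) and 1.98 ± 0.090 in db/m mice (SD, n = 11). It was lower in db/db-IF mice, with a difference of -0.34 from db/db mice (permutation test, adjusted p = 6.4e-04) and of -0.39 from db/m mice (permutation test, adjusted p = 1.9e-04). The ratio of Grpel1 to Grpel2 averaged 1.37 ± 0.57 in db/db-IF mice, 0.84 ± 0.17 in db/db mice and 0.93 ± 0.098 in db/m mice (SD). It was higher in db/db-IF mice by 0.53 against db/db mice (permutation test, adjusted p = 0.0017) and by 0.45 against db/m mice (permutation test, adjusted p = 0.0029), and by 0.33 and 0.24 without db/db-IF mice 1, 7 and 11 (permutation test, adjusted p = 0.0014 and 7.5e-04). The ratio of Timm8a1 to its partner Timm13 averaged -0.29 ± 0.21 in db/db-IF mice, 0.27 ± 0.13 in db/db mice and 0.27 ± 0.089 in db/m mice (SD). The ratio of Timm8b to Timm8a1 averaged 4.02 ± 0.12 in db/db-IF mice, 3.64 ± 0.11 in db/db mice and 3.52 ± 0.084 in db/m mice (SD). For both ratios db/db-IF mice did not overlap either other group, and the unadjusted p against db/db mice of 2.0e-05 is the smallest these permutations can give. Timm8b to Timm8a1 was the only 1 of the 8 ratios to pass between db/db and db/m mice (0.12, permutation test, adjusted p = 0.038). Chchd4 to Gfer, Pmpca to Pmpcb, Dnajc15 to Dnajc19 and Timm9 to Timm10 did not pass in any comparison. The difference in db/db-IF against db/db mice was 0.01 (SE 0.055) for Pmpca to Pmpcb and -0.24 (SE 0.30) for Timm9 to Timm10.

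**Figure D3:**
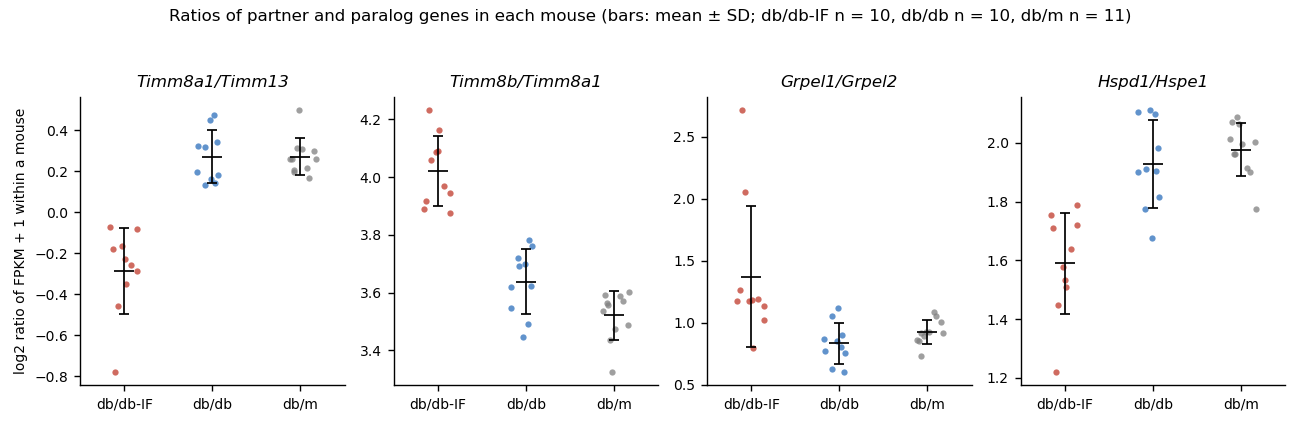
Log2 ratio of FPKM + 1 of 4 gene pairs (vertical axes) in each db/db-IF, db/db and db/m mouse, with the mean and SD of each group. Db/db-IF mice do not overlap the other groups for Timm8a1/Timm13 and Timm8b/Timm8a1, and 2 of them stand high for Grpel1/Grpel2.

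The fold changes of the import genes went with the length of their transcripts. Short transcripts were seen for several genes with large fold changes in db/db-IF against db/db mice, such as Timm8b (518 bases in the longest annotated transcript), Romo1 (569 bases), Timm10 (690 bases), Tomm5 (738 bases) and Hspe1 (964 bases). Of the 5 lower genes, Tomm70a (5964 bases), Tomm20 (4902 bases) and Grpel2 (4038 bases) have long ones. Across the 28 tested genes alone on their locus, Spearman's rank correlation between log2 fold change and length was -0.59 in db/db-IF against db/db mice, and it was -0.45 across 12451 loci of other genes. These points share the same libraries, and genes are not independent replicates. In db/db against db/m mice this correlation was 0.09 across the 28 genes and -0.06 across the other loci. With transcripts under 1500 bases, a limit chosen after values were seen, 7 of 9 import genes were higher and 1, Timm23, was lower in db/db-IF than in db/db mice, and the other was Timm8a1. Of all loci in that class 48.7% were higher and 7.89% were lower. With transcripts of 1500 bases or more, 7 of 19 import genes were higher and 4 were lower, against 13.9% and 34.9% of all loci in the class.

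**Figure D4:**
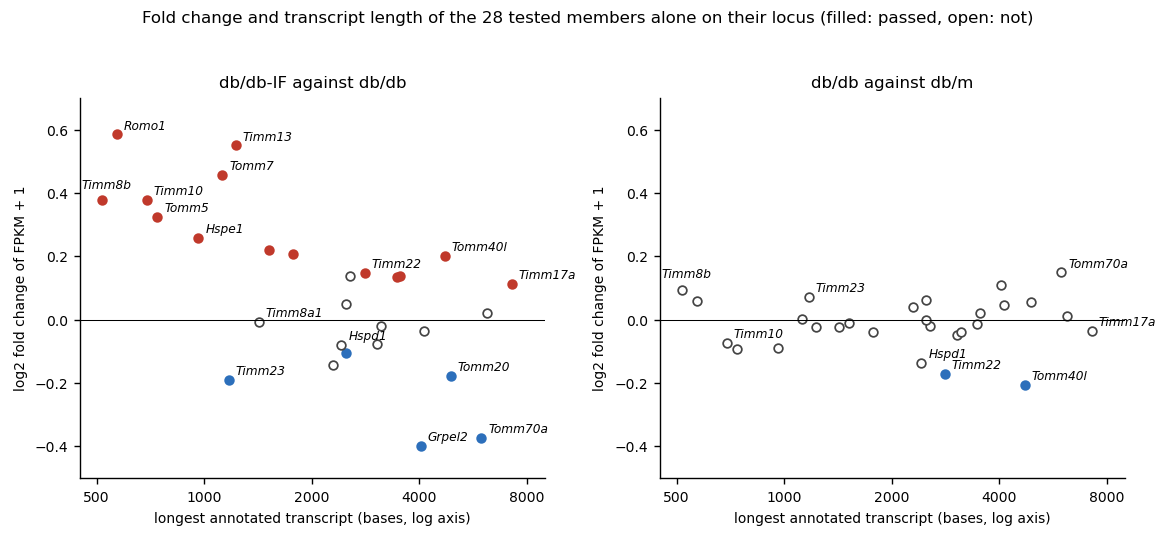
Log2 fold change of FPKM + 1 (vertical axes) of the 28 tested genes alone on their locus against the length of the longest annotated transcript (horizontal log axes, bases), for db/db-IF against db/db and db/db against db/m mice. Filled points passed the test. Spearman's rank correlation is -0.59 on the left and 0.09 on the right.

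The same trend stood in each mouse. The slope of a mouse's expression, relative to the mean of all mice, on log2 transcript length, computed without the import genes, ranged from -0.24 to -0.045 in db/db-IF mice, from -0.040 to 0.072 in db/db mice and from 0.0012 to 0.082 in db/m mice. All db/db-IF mice lay below all others, with mouse 7 the lowest, so that fasting and this slope can hardly be told apart in one model. With the slope as a covariate, 0 of the 36 genes were higher and 0 were lower in db/db-IF than in db/db mice by limma, and over all loci 1.35% and 0.461% were called. The median of the 36 genes was then 0.05 and that of all loci 0.02. Against db/m mice, Timm8b alone was higher (0.17, SE 0.047, adjusted p = 0.039), and 0 genes were lower. Between db/db and db/m mice, where the slopes overlap, the covariate left Tomm40l (-0.22, adjusted p = 1.1e-04) and Timm22 (-0.18, adjusted p = 0.0025) lower. Tomm40, Tomm5 and Hspe1 were then lower too (-0.21, -0.12 and -0.10), and Tomm70a was higher (0.18, adjusted p = 0.018). When instead the loess trend on length over all loci was taken out of each mouse, 21 genes were higher and 5 were lower in db/db-IF than in db/db mice, with 29.8% and 18% over all loci. For genes on shared loci the longest transcript of any gene of the locus was used, and for the others the longest of the gene. Which transcript was expressed was not examined, and the corrected values and counts rest on these lengths. Timm8b (0.19), Romo1 (0.40), Timm13 (0.43), Timm10 (0.21), Tomm7 (0.33) and Tomm70a (-0.13) still passed, and Tomm20 (0.01) did not. All 9 ratios that had passed did so again, although the difference in Hspd1 to Hspe1 shrank to -0.18 from db/db and -0.21 from db/m mice. The ratios were not tested with the slope as a covariate. In that fit, against db/db mice, Hspd1 and Hspe1 had log2 fold changes of 0.064 and 0.065, and Grpel1 and Grpel2 had -0.10 and 0.19. Timm8a1, Timm13 and Timm8b had -0.090, 0.14 and 0.10. Against db/m mice, Hspe1 (0.02, adjusted p = 0.66), Tomm5 (0.05, adjusted p = 0.26), Timm50 (0.13, adjusted p = 0.10), Grpel2 (-0.13, adjusted p = 0.30) and Hspa9 (-0.04, adjusted p = 0.45) no longer passed. 

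**Figure D5:**
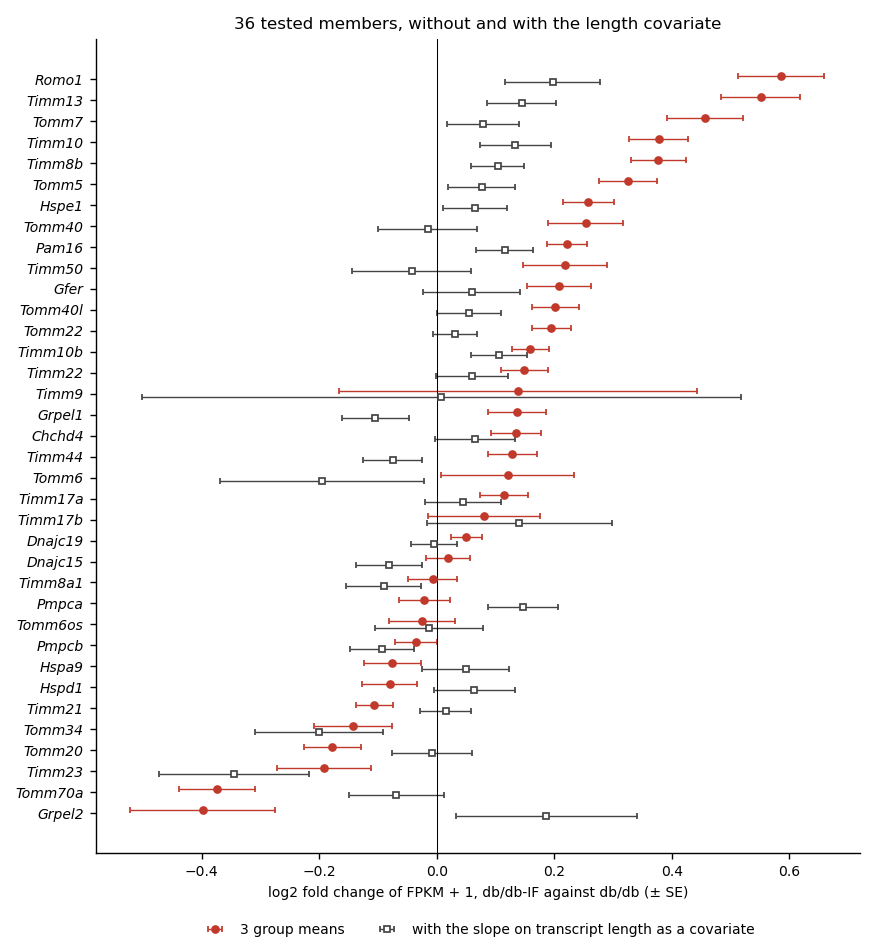
Log2 fold change of FPKM + 1 in db/db-IF against db/db mice (horizontal axis, ± SE) of the 36 tested genes from the fit with 3 group means (filled circles) and from the fit with each mouse's slope on transcript length added (open squares). The median of the genes is 0.13 in the first fit and 0.05 in the second, and Grpel2 lies at -0.40 and 0.19.

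Other genes of the pathway, from lists chosen with earlier results of these data known, were described by counts, beside 23.7% higher and 27.4% lower loci and a median of -0.02 over all loci in db/db-IF against db/db mice. Of 14 further import and insertion genes 5 were higher and 2 were lower in db/db-IF than in db/db mice (median 0.07). Samm50, which inserts beta-barrel proteins into the outer membrane (0.21, SE 0.041, adjusted p = 1.1e-04), and Immp2l, a protease of the inner membrane (0.65, SE 0.15, adjusted p = 7.0e-04), were among the higher genes. Mtx2, a partner of Samm50 (-0.18), and Agk, a TIM22 subunit (-0.21), were the lower genes. Of 15 proteases and chaperones of the matrix and inner membrane 6 were higher and 4 were lower (median 0.06). The matrix protease gene Lonp1 averaged 30.97 FPKM in db/db-IF mice, 26.2 FPKM in db/db mice and 27.4 FPKM in db/m mice, and was higher in db/db-IF than in db/db mice (0.23, SE 0.033), as was Clpp (0.31, SE 0.045), the proteolytic chamber of the ClpXP protease. Clpx, the unfoldase that feeds Clpp, was lower (-0.12, SE 0.029), and so was the inner membrane protease gene Yme1l1 (-0.40, SE 0.079), which degrades unassembled small chaperones in yeast. The genes Trap1 (0.01, on a locus with Nlrc3), Afg3l2 (-0.07) and Pitrm1 (0.06) did not pass. Between db/db and db/m mice 1 gene of the first list and 0 of the second passed by limma.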

How the data were processed

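Hippocampal RNA of 31 mice was sequenced, with 1 library per mouse, grouped by the sample labels (10 db/db-IF, 10 db/db, 11 db/m). Per the labels and the study's methods, the authors cleaned the reads (Trimmomatic 0.38), mapped them to GRCm38.p6 (HISAT2), merged the assembled transcripts (StringTie 1.3.4d) and deposited 1 FPKM value per locus and mouse. FPKM values are divided by transcript length and library size, and a 3-prime or length bias of a library therefore stays in them. Read counts were not used here, so the precision is that of the spread between mice.

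For a gene with several loci, the locus with the highest mean FPKM was used. Loci above 1 FPKM in at least 10 mice were tested on log2(FPKM + 1) with limma 3.58.1 in R 4.3.3 (moderated test, prior spread following mean expression, two-sided, Benjamini-Hochberg adjustment over the 17139 loci, adjusted p under 0.05). The genes, lists and pairs were chosen with earlier results of these data known. All 37 genes are accounted for. Values by group are given for up to 12 genes with the smallest adjusted p in each direction, for those that differed between db/db and db/m mice and for the most highly expressed gene of each role. Ratios were tested with scipy 1.17.1. Transcript lengths were those of the longest GENCODE transcript (GRCm38) of each gene. Where the length trend was removed, a shared locus was given the longest transcript of any of its genes. Promoters were RefSeq windows of GRCm38.p6, without the import genes on chromosome 18. The limma fit was tested on simulated data. Alternatives tried were another pseudocount and other filters, equal medians, quantile normalization, Ballgown's linear model, read-quality and GC covariates, a replicate block, 2 treatments of the length trend, summed loci, fits on 2 groups and leaving out mice. Sets of mice split by the read quality in the study's supplement, and leaving out db/db-IF mouse 7 with db/db mouse 10, were chosen after seeing the data.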

Additional observations from a re-analysis of the deposited data

Results flagged for a closer look

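In the 72 groups of 10 mice formed by the 36 tested genes in db/db-IF and db/db mice, 12 had a mouse far from the others of its group, where chance gives about 1 in 20. Groups of 11 db/m mice were not examined in this way. Mouse 7 of db/db-IF accounted for 6 of them. It had by far the highest FPKM of its group for Timm50 (24.6, next 17.5), Tomm22 (40.6, next 36.5), Tomm40 (348, next 269.6), Tomm5 (99.6, next 84.9) and Grpel1 (49.5, next 41.3), and by far the lowest for Tomm70a (9.42, next 13.2). This mouse also had the lowest slope on transcript length. Mouse 10 of db/db, with the lowest slope of its group, accounted for 4. It had by far the highest FPKM of Dnajc19 (1.19, next 1.04), Timm8a1 (15.6, next 14.2) and Tomm22 (34.2, next 31.5) and by far the lowest of Timm21 (0.965, next 1.13). Mouse 11 of db/db-IF had by far the highest Timm9 (71.5, next 45.3) and mouse 8 of db/db-IF by far the lowest Gfer (4.88, next 6.37). Without db/db-IF mouse 7 and db/db mouse 10 together, 20 genes were higher and 5 were lower in db/db-IF than in db/db mice, with 23% and 26.8% over all loci.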

How the results depend on the processing

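FPKM without counts, 10 or 11 mice a group and a length trend that differs between fasted and freely fed mice limit the precision. The higher and lower counts of import genes stayed within 1.5 times of those reported under a pseudocount of 0.1, without a filter, with FPKM above 1 in all 31 mice, under Ballgown's linear model, with read-quality and GC covariates and with summed loci. With a length slope for each mouse in the model, the counts were 0 higher and 0 lower in db/db-IF against both other groups combined and against db/db mice, 1 higher and 0 lower against db/m mice, and 1 higher and 5 lower in db/db against db/m mice. Over all loci, in the same order, 0.759% and 0.152%, 1.35% and 0.461%, 1.78% and 0.829%, and 6.04% and 4.11% were higher and lower. With this slope, fold changes of called genes changed sign in db/db-IF against db/db mice for Grpel1 (-0.10), Grpel2 (0.19), Timm21 (0.015), Timm44 (-0.075), Timm50 (-0.042) and Tomm40 (-0.016). Against db/m mice they did so for Grpel1 (-0.10), Grpel2 (0.35), Hspa9 (0.012), Hspe1 (-0.040), Timm21 (0.024), Timm44 (-0.034), Timm50 (-0.076), Tomm20 (0.062), Tomm5 (-0.039) and Tomm70a (0.11). With the length trend removed, Tomm20 (0.013 against db/db and 0.090 against db/m mice) and Tomm70a (0.042 against db/m mice) changed sign, 1 gene was higher in db/db against db/m mice, and 12 ratios passed. Equal medians and quantile normalization each left 3 genes lower in db/db-IF than in db/m mice, and a fit on db/db and db/m mice alone gave 4 lower genes. The cause of these changes was not tested. For most counts of this section the share over all loci under the same setting is not given here. They show how calls depend on the processing, not how import genes compare with other loci. Without db/db-IF mice 1, 7 and 11, 3 genes were lower in db/db-IF than in both other groups combined, 3 than in db/db and 3 than in db/m mice, and between db/db and db/m mice 2 were higher and 4 were lower. In the lower read-quality set, with fewer mice, 2, 2 and 2 genes were lower in db/db-IF mice against the combined groups, db/db and db/m mice, and 0 in db/db against db/m mice. In the higher set 2 were lower against db/db mice, 8 were higher and 2 lower against db/m mice, and 0 were lower in db/db against db/m mice. Leaving out mouse by mouse gave 19 to 20 higher and 4 to 6 lower genes in db/db-IF against db/db mice, 16 to 17 and 3 to 6 against db/m mice, 17 to 19 and 5 to 7 against both combined, 0 to 1 and 2 to 4 in db/db against db/m mice, and 8 to 10 ratios. Without db/db-IF mouse 7 alone, Tomm40 (limma, adjusted p = 0.016), Tomm70a (adjusted p = 0.046) and Hspd1 passed in db/db against db/m mice, and without that mouse and db/db mouse 10 together 1 gene was higher and 4 were lower. Without db/db-IF mouse 11, 3 genes were lower in db/db-IF than in db/m mice. With the replicate number as a block, 19 genes were higher and 4 lower in db/db-IF against db/db mice, 16 and 5 against db/m mice, 17 and 5 against both combined, and 0 and 2 in db/db against db/m mice. Of 29 pairs of mice with the same number, 2 had deviations that correlated above 0.1 (range -0.27 to 0.16). This cannot exclude that the numbers pair some of the mice. In db/db-IF and db/m mice, numbers up to 6 lay in the lower read-quality set and numbers from 7 in the higher set. Db/db mice 4 and 6 lay in the higher set.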

Other observations

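Of the 4 genes with a second locus of the same name, Hspe1 had the widest spread there, with 0.457 to 17.0 FPKM in db/db-IF mice (median 1.80), 0.518 to 28.9 FPKM in db/db mice (median 1.26) and 0.877 to 38.8 FPKM in db/m mice (median 1.70). The second locus of Hspa9 ranged from 4.60 to 11.1 FPKM in db/db-IF mice, from 4.75 to 10.0 FPKM in db/db mice and from 4.90 to 11.1 FPKM in db/m mice and did not pass in db/db-IF against db/db mice (limma, adjusted p = 0.19). That of Timm8b stayed near 1 FPKM, with a median of 1.04 FPKM among db/db-IF mice, 1.07 FPKM among db/db mice and 1.22 FPKM among db/m mice. It was lower in db/db-IF than in db/m mice (-0.12, limma, adjusted p = 0.020), the opposite direction to the first locus of Timm8b (0.47). That of Tomm20 stayed between 0.201 and 0.696 FPKM and was not tested.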
